A study of Mus musculus with 3 samples.

Results

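The transcripts of 9 enzymes and enzyme partners that make or break down prostaglandins and leukotrienes were followed in wound monocytes and macrophages. They were the cyclooxygenase genes Ptgs1 and Ptgs2, the prostaglandin E synthase gene Ptges, the prostaglandin D synthase gene Hpgds, the prostaglandin-degrading enzyme gene Hpgd, and the leukotriene genes Alox5, Alox5ap, Lta4h and Ltc4s. The genes were chosen by symbol, and all 9 were found among the 31053 gene identifiers of each count matrix. Single-cell RNA sequencing on the 10x Chromium platform was performed on cells from enzymatically digested skin wounds at day 3, day 6 and day 10 after injury, all taken from male C57BL6/J mice (an inbred strain) labelled WT, and no treatment was labelled. Each day was 1 library of 2 pooled mice. The pooled animals cannot be told apart, so no day had a replicate and no p-value was computed. The age of the mice, the kind of wound and the gates used for isolation are not given in the sources used.

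Prostaglandins and leukotrienes are lipid signals made from arachidonic acid, which phospholipases release from membranes. Cyclooxygenases turn it into prostaglandin H2, and terminal synthases then make prostaglandin E2 (Ptges) or prostaglandin D2 (Hpgds), which Hpgd and related enzymes inactivate. In the other branch 5-lipoxygenase (Alox5), helped by its activating protein (Alox5ap), makes leukotriene A4, which Lta4h turns into leukotriene B4 and Ltc4s into leukotriene C4. Macrophages and monocytes are major sources of these mediators in inflamed tissue, where prostaglandin E2 acts on blood vessels, pain fibres and immune cells.

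Ptgs2 and Ptges are often induced together in macrophages by inflammatory stimuli, and the sequence before each start site is printed because their transcripts are compared cell by cell further on. RefSeq start-site windows of build GRCm38.p6, which run from 250 bases before to 50 bases after the start, were found for 8 of the 9 genes, and not for Alox5ap. In the first line, which ends at the base before the Ptgs2 start (chr1:150099781-150100030, plus strand), the capitals mark a GC box (GGGCGG) 170 bases before the start and a C/EBP site (TTGCGCAA) 69 bases before it. The start used is the first base (chr1:150100031) of 1 of the 2 protein-coding Ptgs2 transcripts that GENCODE vM21 lists. The other begins at chr1:150100332. Positions are counted from this annotated base, and no start was measured in these data. The second line is a stretch of 24 bases just after the same start (chr1:150100038-150100061). Its capitals cover a cyclic AMP response core (TGACG, read here on the other strand as CGTCA) and an E-box (CACGTG), which overlap and begin 14 and 17 bases after the start. The third line ends at the base before the RefSeq start of Ptges used here (chr2:30903298-30903547, minus strand), which is also the first base of the 1 protein-coding transcript among the 4 that GENCODE vM21 lists for the gene, and its capitals mark a pair of EGR-like matches (GTGGGCG) 55 and 44 bases before the start, each overlapping a GC box 53 and 42 bases before it.
Ptgs2 upstream: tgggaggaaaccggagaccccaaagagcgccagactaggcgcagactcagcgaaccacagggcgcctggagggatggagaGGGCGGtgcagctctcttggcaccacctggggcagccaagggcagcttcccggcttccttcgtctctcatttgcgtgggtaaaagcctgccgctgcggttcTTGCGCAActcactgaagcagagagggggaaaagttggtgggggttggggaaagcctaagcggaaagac
Ptgs2 after the start: ccactaCGTCACGTGgagtccgct
Ptges upstream: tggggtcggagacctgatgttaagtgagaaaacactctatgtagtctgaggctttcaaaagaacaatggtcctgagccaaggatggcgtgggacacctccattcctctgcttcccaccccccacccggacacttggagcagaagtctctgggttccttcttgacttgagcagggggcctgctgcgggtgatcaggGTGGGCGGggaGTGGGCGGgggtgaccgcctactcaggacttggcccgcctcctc
All motifs were searched on both strands of 32851 such windows of mouse genes. TTGCGCAA was held by 0.183% of them, CACGTG by 7.15%, GTGGGCG by 7.97%, ACGTG by 19.6%, TGACG by 20.8% and GGGCGG by 35.7%. ACGTG, the core of hypoxia response elements, matched the Ptgs2 window on both strands 17 and 18 bases after the start, inside the E-box. Among the other genes with a window, Alox5 held 1 GC box and Hpgd held 1 GC box and 2 EGR-like matches. Of the motifs searched, the Ptges window shared only the GC box with the Ptgs2 window, and letters that match a motif are a description of the sequence and not evidence of binding.

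The files held 1472 barcodes at day 3, 1196 at day 6 and 2209 at day 10. After barcodes under 200 genes or at 10% or more mitochondrial counts were left out, 900, 598 and 1362 cells were kept for these days in the same order. Clustering left the 9 genes and their wider pathway out of the genes used, so that the clusters were not defined by them. Of 14 clusters, 9 carried monocyte and macrophage markers and formed the monocyte/macrophage-like class, with 760 cells at day 3, 434 at day 6 and 1136 at day 10. The class held 7516204, 4403694 and 8985944 unique molecular identifiers (UMIs), the counted transcript molecules, at a median of 9962, 9020.5 and 7548.5 per cell. None of the 29 monocyte and macrophage markers was at 0 in it on any day. The class was named from these same markers, so this is no separate support for its name. Levels are given as CPM, the UMIs of a gene over all UMIs of the same cells on the usual CPM scale, and intervals are exact 95% intervals that cover counting error only, not the spread between mice. A change in the CPM of a class can come from more cells with a transcript or from more transcript per cell. No barcode was shared between the libraries except 2 that occurred at both day 10 and day 6. Hemoglobin and other erythroid markers summed to 1.20 CPM in the class at day 3, 2881 at day 6 and 0.779 at day 10, and their part in the results was not tested.

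The inducible cyclooxygenase and the synthase that follows it did not move together over the class. Ptgs2 transcripts were plentiful at all 3 days and lower at day 10, whereas Ptges was nearly undetected at day 3 and more than 10-fold higher at the later days. The other cyclooxygenase, Ptgs1, and the prostaglandin D synthase Hpgds were also higher after day 3. The leukotriene genes differed by at most 2.04-fold between days, and the largest difference among them was in Ltc4s. The plot of the levels by day shows these courses.

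**Figure D1:**
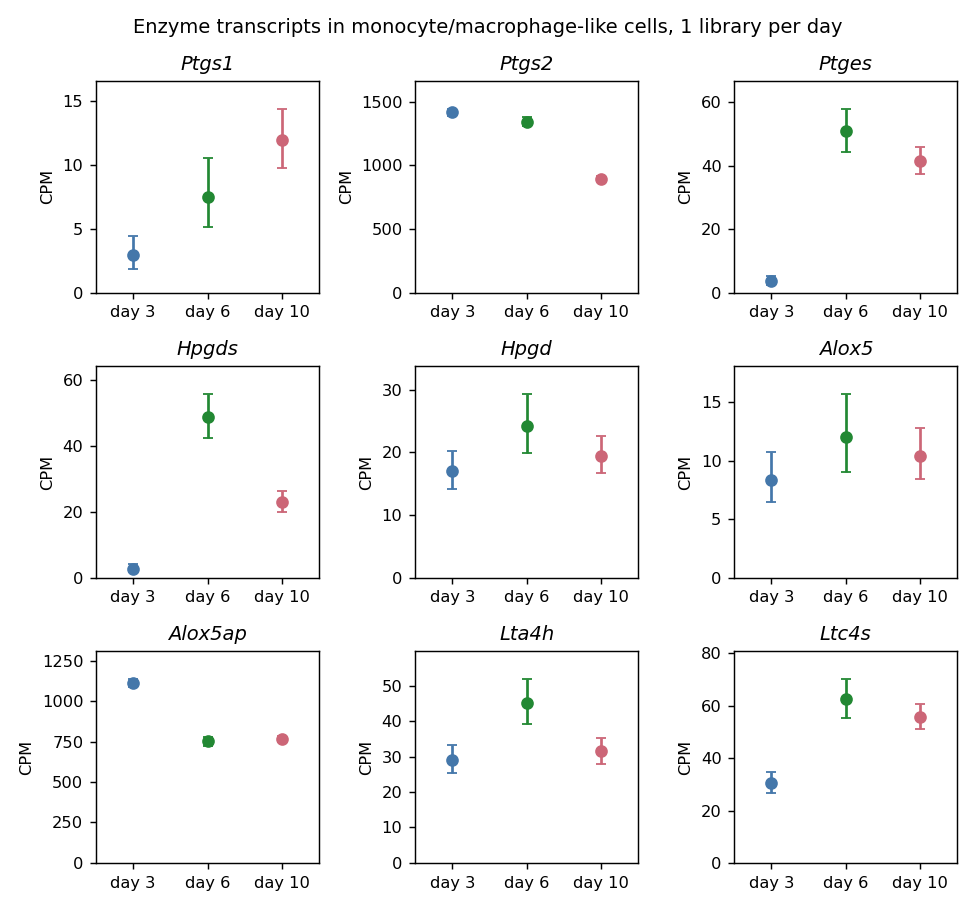
Level of each of the 9 transcripts in monocyte/macrophage-like cells at day 3, day 6 and day 10, as CPM of summed UMIs, with a linear axis from 0 in each panel. Points are the single library of each day and bars are exact 95% counting intervals. Ptges and Hpgds are near 0 at day 3, Ptgs2 is lowest at day 10, and the intervals of Hpgd, Alox5 and Lta4h overlap between day 3 and day 10.

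Ptgs2 encodes cyclooxygenase 2, the inducible form (ENSMUSG00000032487, chr1:150100031-150108227, plus strand). It was measured at 1419 CPM at day 3 (1393 to 1447), 1343 CPM at day 6 (1309 to 1378) and 894 CPM at day 10 (875 to 914). Day 10 was 1.59-fold lower than day 3 (1.54 to 1.63) and 1.5-fold lower than day 6 (1.45 to 1.55), so the second ratio lay at the 1.5-fold limit used here. The share of cells with a Ptgs2 UMI was 65.7% at day 3, 50% at day 6 and 46.0% at day 10. After every cell was thinned to 2000 UMIs, which left out 21, 45 and 86 shallower cells, these shares were 54.5%, 38.8% and 35.6%. Carrying cells held on average 21.4 UMIs at day 3, 27.3 at day 6 and 15.4 at day 10, and the fullest cell held 305 UMIs at day 6. Outside the class the share differed between clusters, so no single background level is given. In the unnamed clusters 2 of the 61 cells had a Ptgs2 UMI (3.28%), although their median of 19249 UMIs was above that of the class. In the conventional dendritic cell-like cluster 109 of the 438 cells had one (24.9%), at a median of 15481.5 UMIs.

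Ptgs1 encodes the constitutive cyclooxygenase 1 (ENSMUSG00000047250, chr2:36230426-36252272, plus strand). Its level was 2.93 CPM at day 3 from 22 UMIs, 7.49 CPM at day 6 from 33 UMIs and 11.9 CPM at day 10 from 107 UMIs. Day 10 was 4.07-fold higher than day 3 (2.55 to 6.76), and the day 6 interval (5.16 to 10.5) lay above that of day 3 (1.83 to 4.43) and overlapped that of day 10 (9.76 to 14.4). Platelets are also rich in Ptgs1, and their markers summed to 72.5 CPM at day 3, 31.6 at day 6 and 42.2 at day 10 over 5 genes, with Gp9 and Gp1bb at 0 on every day. Their part in the result was not tested.

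Ptges encodes microsomal prostaglandin E synthase 1 (ENSMUSG00000050737, chr2:30889471-30929863, minus strand). It had 28 UMIs at day 3, 224 at day 6 and 372 at day 10, which gave 3.73 CPM (2.48 to 5.38), 50.9 CPM (44.4 to 58.0) and 41.4 CPM (37.3 to 45.8). Day 10 was 11.1-fold higher than day 3 (7.56 to 17.0) and day 6 was 13.7-fold higher than day 3 (9.19 to 21.0). Day 10 was 1.23-fold lower than day 6 (1.04 to 1.45), within the 1.5-fold limit. Cells with a Ptges UMI made up 3.29% of the class at day 3, 8.53% at day 6 and 11.5% at day 10, and 0.812%, 4.37% and 4.86% after thinning. As a background level, none of the 438 cells of the conventional dendritic cell-like cluster carried a Ptges UMI, which allows a share of cells with a UMI of up to 0.685% (3 counts of the total), although their median of 15481.5 UMIs exceeded that of the class. Fibroblast markers (8 genes) summed to 5.59 CPM in the class at day 3, 31.3 at day 6 and 43.0 at day 10, and their part in the result was not tested.

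The day 6 and day 10 libraries held their Ptges in different numbers of cells. No cell of day 3 had more than 2 Ptges UMIs. At day 6, 9 cells with at least 5 UMIs held 78.1% of all Ptges UMIs and the fullest cell held 39, whereas at day 10, 24 such cells held 57.5% and the fullest cell held 23. The mean per carrying cell was 1.12 UMIs at day 3, 6.05 at day 6 and 2.84 at day 10.

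Hpgds encodes the hematopoietic prostaglandin D synthase (ENSMUSG00000029919, chr6:65117293-65144908, minus strand). It had 20 UMIs in 11 cells at day 3, 215 UMIs in 98 cells at day 6 and 206 UMIs in 129 cells at day 10, or 2.66, 48.8 and 22.9 CPM. Day 6 was 18.3-fold higher than day 3 (11.6 to 30.6), day 10 was 8.62-fold higher than day 3 (5.44 to 14.4), and day 10 was 2.13-fold lower than day 6 (1.75 to 2.59). The day 3 level rested on few cells, since 9 of its 20 UMIs were in 3 cells of 1 cluster. Without the 1% of cells with the most Hpgds UMIs the ratio of day 10 to day 3 was 45.5, but it rested on very few day 3 counts. The step left out 8 cells at day 3, where 11 carried Hpgds, and 11 cells at day 10, where 129 did. Day 3 then held 3 UMIs (0.404 CPM) and day 10 held 163. Mast cells also express Hpgds. Their markers summed to 2.26 CPM at day 3, 1.82 at day 6 and 1.11 at day 10 over 9 genes, with Mcpt4, Ms4a2 and Fcer1a at 0 throughout. Conventional dendritic cell markers summed to 161 CPM at day 3, 239 at day 6 and 132 at day 10 over 12 genes, and Langerhans cell markers to 9.45, 52.7 and 22.7 CPM over 4 genes. The part of mast, dendritic and Langerhans cells in the result was not tested.

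Hpgd encodes 15-hydroxyprostaglandin dehydrogenase, which starts the breakdown of prostaglandin E2 (ENSMUSG00000031613, chr8:56294585-56321043, plus strand). Its level was 17.0 CPM at day 3, 24.3 CPM at day 6 and 19.5 CPM at day 10, from 128, 107 and 175 UMIs. The ratio of day 10 to day 3 was 1.14 (0.905 to 1.45) and that of day 6 to day 3 was 1.43 (1.09 to 1.86), both within the 1.5-fold limit. Its transcripts were concentrated, with 46.1% of the day 3 UMIs in the top 1% of cells. Without those cells on each day, day 6 was 1.93-fold higher than day 3, at 18.0 and 9.30 CPM. When the class was rebuilt from clusters in which the enzymes took part, the ratio of day 6 to day 3 was 0.457, because a cluster of 134 cells rich in Hpgd, led by hemoglobin transcripts, then stayed unnamed and left the class.

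In the leukotriene branch Alox5ap, the 5-lipoxygenase activating protein, was carried by most cells (ENSMUSG00000060063, chr5:149264767-149288153, plus strand). It was present in 97.5% of cells at day 3, 92.4% at day 6 and 87.1% at day 10, at 1113, 751 and 768 CPM. Day 10 was 1.45-fold lower than day 3 (1.4 to 1.5) and day 6 was 1.48-fold lower (1.42 to 1.54), just inside the 1.5-fold limit. Scaling by trimmed means (TMM) moved both past the limit, to 1.59-fold and 1.73-fold lower. The antisense gene Gm19719 that overlaps Alox5ap had 0 UMIs on every day.

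Alox5, the 5-lipoxygenase itself (ENSMUSG00000025701, chr6:116410077-116461178, minus strand), had 63 UMIs at day 3, 53 at day 6 and 94 at day 10. These gave 8.38 CPM (6.44 to 10.7), 12.0 CPM (9.02 to 15.7) and 10.5 CPM (8.45 to 12.8), and the 3 intervals overlapped. Its carrying cells averaged 1.29, 1.23 and 1.19 UMIs. Lta4h, the leukotriene A4 hydrolase (ENSMUSG00000015889, chr10:93453411-93484875, plus strand), had 29.1 CPM at day 3, 45.2 CPM at day 6 and 31.5 CPM at day 10. Day 6 was 1.55-fold higher than day 3 (1.27 to 1.89), and TMM factors brought this to 1.33-fold.

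Ltc4s, the leukotriene C4 synthase (ENSMUSG00000020377, chr11:50236461-50238616, minus strand), had 30.6 CPM at day 3 (26.8 to 34.8), 62.4 CPM at day 6 (55.3 to 70.3) and 55.8 CPM at day 10 (51.0 to 60.9). Day 10 was 1.82-fold higher than day 3 (1.56 to 2.14) and day 6 was 2.04-fold higher than day 3 (1.71 to 2.44). Its carrying cells held close to 3 UMIs on average on each day, with means of 3.07 at day 3, 3.09 at day 6 and 3.07 at day 10. The antisense gene Gm26542 that overlaps it had 7, 4 and 8 UMIs in these libraries, against 230, 275 and 501 for Ltc4s.

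Counted over the list, 4 of the 9 genes were at least 1.5-fold higher at day 10 than at day 3 (Ptgs1, Ptges, Hpgds and Ltc4s), where 26.3% of the 10664 genes compared were. Ptgs2 was the 1 gene at least 1.5-fold lower, where 11.3% of all genes were. At day 6 against day 3, 5 of 9 were higher, now with Lta4h, where 30.1% of 10178 genes were, and none was lower, where 11.5% of all genes were. At day 10 against day 6, Ptgs1 was higher, where 7.12% of 10564 genes were, and Ptgs2 and Hpgds were lower, where 11.2% were. The median log2 ratio of the list was 0.32, 0.63 and -0.30 in these comparisons, beside 0.16, 0.23 and -0.07 over all genes compared. The comparisons of day 10 and of day 6 with day 3 share the day 3 library.

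The enzymes were next compared between the 13 clusters with at least 20 cells, summed over days, and the map of levels by cluster gives every value. Ptges was concentrated in cluster 9, which is led by Ptges itself, Inhba, Il1a, Cxcl1, Spp1 and Tnf although Ptges took no part in the clustering. It reached 297 CPM there (268 to 329) in 50.7% of 134 cells, followed by 47.6 CPM in cluster 3 (40.4 to 55.7), which is led by Mmp12, Mt2, Saa3 and Nos2, and 13.4 CPM in cluster 5 (8.90 to 19.4). In cluster 11, in the unnamed clusters and in both dendritic cell-like clusters Ptges had 0 UMIs. The intervals of clusters 9, 3 and 5 did not overlap, and from cluster 5 down neighbours in the order overlapped. Cluster 3 had 298 of its 353 cells from day 10, and at day 6 its Ptges level (4.59 CPM, 0.947 to 13.4) was not above that of cluster 5 (12.0 CPM, 5.97 to 21.4).

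Ptgs2 was highest in cluster 6, led by the interferon-induced genes Cxcl10, Rsad2 and Isg15, at 3103 CPM (3035 to 3171), and in cluster 9 at 2956 CPM (2864 to 3051), and these intervals overlapped. Cluster 6 had 237 of its 267 cells from day 3 and cluster 9 only 10 of its 134. In the day 6 library, which holds both, cluster 6 had 5719 CPM in 21 cells (5404 to 6047) and cluster 9 had 3557 CPM in 49 cells (3400 to 3719). Clusters 8, 3 and 5 followed at 1565, 1175 and 1037 CPM, and the C1q-rich cluster 2 had 87.2 CPM. At day 3, cluster 6 had 31.2% of the class cells, 63.0% of the Ptgs2 UMIs and 18 of the 28 Ptges UMIs (64.3%). Its Ptges level was 7.87 CPM at day 3 (4.67 to 12.4), and at day 6 it had 0 Ptges UMIs in 21 cells, where cluster 9 had 379 CPM (329 to 434). Between the days, cluster and time cannot be told apart for this pair. The plot of the pair by cluster and day shows each level.

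**Figure D2:**
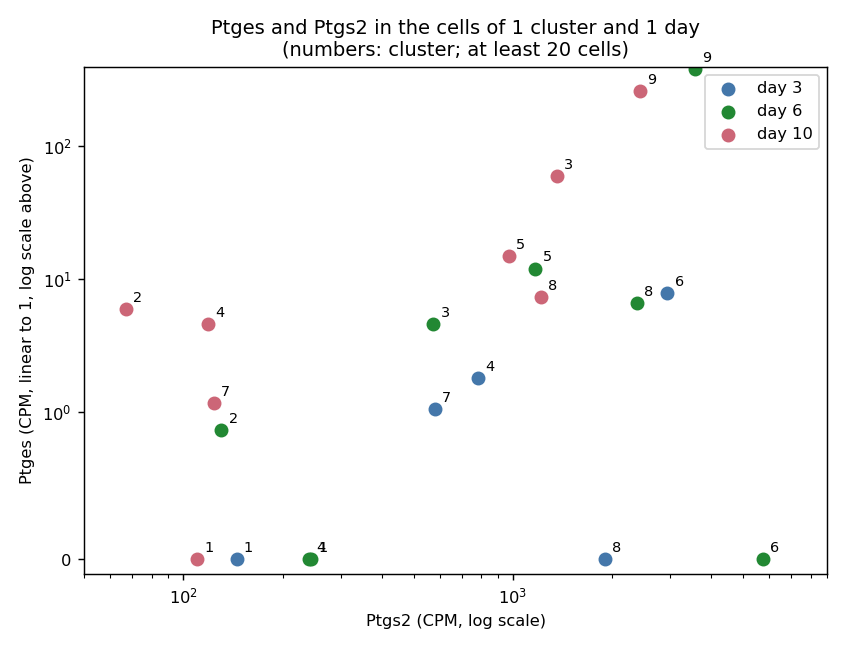
Ptges against Ptgs2, both in CPM, in the cells of 1 cluster from 1 library with at least 20 cells. The Ptgs2 axis is a log scale and the Ptges axis is linear up to 1 and log above. Cluster 9 lies at the upper right on both of its days, cluster 6 lies far to the right with little or no Ptges, and the dendritic cell-like cluster 1 lies at 0 Ptges on all 3 days.

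Cluster 11, a group of 29 cells led by Ccl8, Lyve1, Cd163 and Folr2, genes known from tissue-resident dermal macrophages, carried another set. It had the highest levels of Hpgd (277 CPM, 218 to 347), Ltc4s (524 CPM, 441 to 618), Hpgds (210.4 CPM, 159 to 273) and Alox5 (96.0 CPM, 62.7 to 141), the last overlapping the interval of cluster 12. It also carried the other cyclooxygenase, Ptgs1, at 55.4 CPM (31.0 to 91.3) and in 12 of its 29 cells (41.4%). That interval overlapped those of clusters 12 and 10. Cluster 11 had only 2 Ptgs2 UMIs and no Ptges UMI, and with 29 cells a count of 0 allows up to 10.3% of cells with a Ptges UMI, which does not limit cells that express it without a UMI. Of these cells 3 were from day 3, 12 from day 6 and 14 from day 10. When the enzymes were among the genes used for clustering these cells joined others, and the highest cluster level was then 97.6 CPM for Hpgd, 92.2 CPM for Hpgds and 124 CPM for Ltc4s.

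Outside cluster 11, Ltc4s was highest in cluster 5 at 156 CPM (140 to 174), which is led by Gdf15, Pmp22 and Il10, and Hpgds in cluster 2 at 60.0 CPM (52.0 to 68.7). Cluster 2 is also led by hemoglobin transcripts, which came almost wholly from day 6. Hpgd was next highest in cluster 7 at 53.4 CPM (45.3 to 62.5), which is led by S100a9, Lcn2 and Chil3. Hpgd had 0 UMIs in cluster 6 and in cluster 9, the clusters highest in Ptgs2, and 1 UMI in cluster 3. Alox5ap was highest in cluster 7 at 1333 CPM and in the Ly6c2-led cluster 4 at 1205 CPM. Its lowest level in the class was 575 CPM in cluster 3, and it was 52.4 CPM in the migratory dendritic cell-like cells. Ptgs1 (80.5 CPM) and Alox5 (70.2 CPM) were also high in the 24 cells of the cycling cluster 12, which stayed unnamed, but 1 cell held 66.0% of its 47 Ptgs1 UMIs and 51.2% of its 41 Alox5 UMIs, and without the fullest cell the levels were 30.6 and 38.2 CPM. The same step left Ptgs1 at 49.6 CPM in cluster 11. Lta4h was highest in the unnamed Retnla-led cluster 10 at 105 CPM and in the dendritic cell-like cluster 1 at 76.6 CPM.

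Across 21 sums of at least 20 cells of 1 cluster and 1 library, Ptgs2 and Hpgd had a Pearson r of -0.79 on log2(CPM + 10). Ptgs2 and Ptges had r = 0.48, Ptgs1 had r = 0.68 with Ltc4s and 0.65 with Hpgds, and Alox5ap had r = 0.62 with Hpgd. These sums share 3 libraries and are described, not tested. Cluster 11, with 3 cells at day 3, 12 at day 6 and 14 at day 10, gave no sum. Neither did clusters 10, 12 and 13, so the values do not cover these clusters. The genes most like Ptges over the same sums, of 4427 compared, were Sema3c (r = 0.885), Mgarp (0.857), Slco4a1 (0.836), Nos2 (0.818) and Rapgef1 (0.811). Those most like Ptgs2 were Nfkbiz (0.961), Nfkbia (0.957), Cflar (0.956), Plek (0.950) and Nlrp3 (0.946).

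Ltc4s was most like Tbxas1 (r = 0.888), followed by Ap1b1, Hsd17b11, Folr2 and Xylt2. Hpgds was most like Slc29a1 (0.853), then Nek7, Etfa, Tmem19 and Pltp, and Hpgd was most like Arhgap30 (0.871), then Scarb1, Tmem176b, Abi3 and Ighm. Alox5ap was most like Coro1a (0.909), then Stxbp6, Sorl1, Ifitm6 and Fam49b, and Lta4h was most like Lactb (0.815), then Prkar2a, Prcp, Fgfr1 and Nectin1. Ptgs1 was most like Nek7 (0.792), Emc3, Tpcn1, Vps41 and Chd8, and Alox5 was most like Gdi2 (0.807), Smarcd2, Oxct1, Wipf1 and Mrpl41. Ptgs1 and Alox5 stayed under 50 CPM in every sum, none of which came from cluster 11, so their values rest on low counts.

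Within clusters that held cells of 2 or more days, the courses were not alike. In cluster 3 Ptges was 60.0 CPM at day 10 and 4.59 CPM at day 6, from 152 and 3 UMIs, a ratio of 13.1 (4.39 to 64.0), while in cluster 9 it was 260 CPM at day 10 and 379 CPM at day 6, a ratio of 0.687 (0.559 to 0.843). Ptgs2 in cluster 3 was 1357 CPM at day 10 and 573 CPM at day 6 (2.37-fold higher, 2.13 to 2.64), and in cluster 9 it was 2425 CPM at day 10 and 3557 CPM at day 6 (ratio 0.682, 0.638 to 0.729). Cluster 3 had 298 cells at day 10 and 47 at day 6, and cluster 9 had 75 and 49. Cluster 9 held 92.0% of the Ptges UMIs of the class at day 6, and at day 10 cluster 9 held 47.8% and cluster 3 held 40.9%. Without cluster 9 the ratio of day 6 to day 3 was 1.34 and that of day 10 to day 3 was 6.69, and Ptges was then 5.01-fold higher at day 10 than at day 6.

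Ptgs2 was lower at day 10 than at day 3 in clusters 4 and 7. In cluster 7 it was 123 CPM at day 10 and 579 CPM at day 3 (ratio 0.213, 0.173 to 0.260), and in cluster 4 it was 119 CPM at day 10 and 781 CPM at day 3 (ratio 0.152, 0.0991 to 0.224). Hpgd in cluster 7 was higher at the later day: the day 10 level was 94.3 CPM, against 37.6 CPM at day 3 (2.51-fold, 1.81 to 3.50), and in cluster 4 it was 77.7 CPM at day 10 and 16.6 CPM at day 3 from 17 and 46 UMIs. In cluster 8, led by Areg, Tmem119 and Pdgfb, Ptgs2 levels of 1899, 2378 and 1215 CPM were measured at day 3, day 6 and day 10, and without the 2 fullest cells of each library the ratio of day 10 to day 3 was 0.937 (0.810 to 1.09). Without cluster 2 Ptgs2 over the class was 1.24-fold lower at day 10 than at day 3, within the 1.5-fold limit.

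Ptgs2 was next counted in cells with and without a Ptges UMI. The share was higher in the Ptges-carrying cells of all 3 libraries, and the intervals were apart at day 10, touched at day 6 and overlapped at day 3. At day 3, 20 of 25 Ptges-carrying cells had a Ptgs2 UMI (80.0%, 59.3 to 93.2), against 65.2% of the cells without Ptges (61.6 to 68.6). At day 6 it was 26 of 37 (70.3%, 53.0 to 84.1) against 48.1% (43.1 to 53.2), and at day 10 it was 87 of 131 (66.4%, 57.6 to 74.4) against 43.4% (40.3 to 46.5). If the carrying of each gene were independent within a library, 16.4, 18.5 and 60.3 double carriers would be counted. Deeper cells show more of both genes, and the double carriers had a median of 8867 UMIs at day 10, against 7002 in cells with neither gene. With every cell thinned to 2000 UMIs the shares were 6 of 6 at day 3 (100%, 54.1 to 100), 10 of 17 at day 6 (58.8%, 32.9 to 81.6) and 28 of 51 at day 10 (54.9%, 40.3 to 68.9), against 54.2%, 37.9% and 34.6% of the cells without Ptges. Only the day 10 intervals stayed apart after thinning (31.7 to 37.7 for the cells without Ptges). Without cluster 9 the thinned day 10 share was 16 of 33 (48.5%). No interval and no share in cells without Ptges was computed for that setting, so it does not show whether the intervals stay apart.

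Read the other way, Ptges was present in 4.01% of the Ptgs2-carrying cells and 1.92% of the cells lacking Ptgs2 at day 3. The values were 12.0% and 5.07% at day 6, and 16.6% and 7.18% at day 10. Split by the number of Ptgs2 UMIs in the cell, the day 10 share was 7.18% of 613 cells at 0 UMIs, 13.2% at 1 to 2, 11.8% at 3 to 9, 19.1% at 10 to 29 and 27.4% of 95 cells at 30 or more. The level of Ptges in these groups was 21.6, 27.9, 43.7, 52.3 and 136 CPM. At day 6 the order was not steady, with shares of 5.07%, 1.96%, 14.3%, 12.2% and 17.6% and levels of 31.4, 2.28, 32.0, 16.7 and 165 CPM, so that cells lacking Ptgs2 were above some groups that carried it. At day 3, 7.27% of the 110 cells with 30 or more Ptgs2 UMIs carried Ptges. On each day most cells with 30 or more Ptgs2 UMIs had no Ptges UMI, and their median depth was 10210 UMIs at day 10, against 7083 in the cells with none. The plot of these shares gives each day with its interval.

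**Figure D3:**
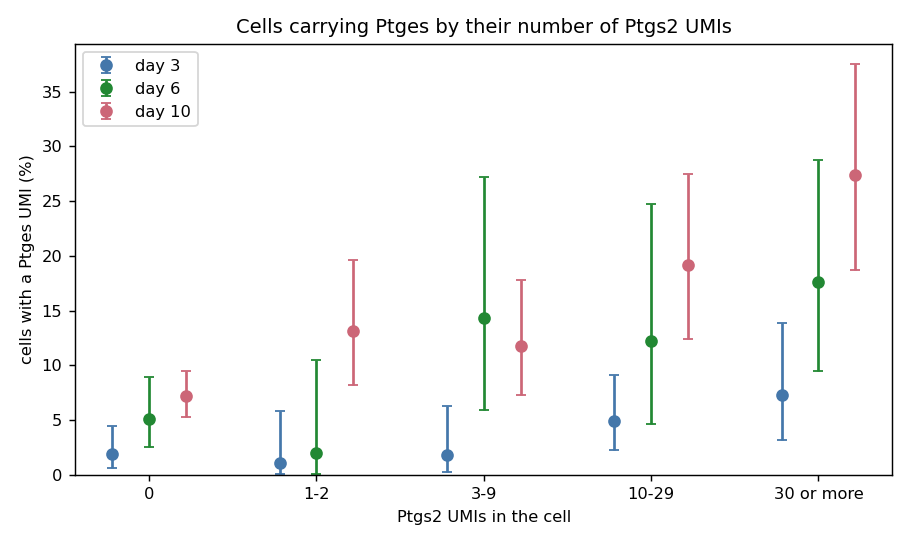
Percent of monocyte/macrophage-like cells with at least 1 Ptges UMI, by the number of Ptgs2 UMIs in the cell, for day 3, day 6 and day 10. Points are shares and bars are exact 95% binomial intervals. The highest share on each day is in the cells with 30 or more Ptgs2 UMIs, at 7.27% at day 3, 17.6% at day 6 and 27.4% at day 10.

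The double carriers lay in different clusters on the different days. At day 3, 13 of 20 were in cluster 6, at day 6, 20 of 26 were in cluster 9, and at day 10, 42 of 87 were in cluster 3 and 33 in cluster 9. Within the clusters that held most of them, the intervals of cells with and without Ptgs2 overlapped. In cluster 9 at day 10, 53.2% of 62 cells with Ptgs2 carried Ptges, against 61.5% of the 13 cells without Ptgs2 (40.1 to 66.0 and 31.6 to 86.1). In cluster 9 at day 6 the shares were 47.6% of 42 and 71.4% of 7 cells, and in cluster 3 at day 10 they were 22.2% of 189 and 16.5% of 109 cells (16.5 to 28.8 and 10.1 to 24.8). In cluster 6 at day 3 they were 5.78% of 225 and 16.7% of 12 cells, and groups of 7 to 13 cells leave wide intervals.

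Double carriers were also set against cells with Ptgs2 alone after thinning. The genes named are those with the largest ratio toward the double carriers, so the selection set their direction. Apart from Cxcl3 and Inhba at day 10 and Rgs1 at day 3, they reached 100 CPM only in the double carriers. The intervals cover counting error and do not allow for this selection. At day 10, 28 against 346 cells, the largest ratios were in Gipr, Csf3, Serpinb2, F3, Cxcl3, Ckap2l, Man1a2, Clmp, Mmp8 and Inhba. The neutrophil chemokine gene Cxcl3 had 6143 CPM in the double carriers and 812 CPM in the cells with Ptgs2 alone (7.56-fold, 6.59 to 8.67), and the activin subunit gene Inhba had 1000 and 179 CPM (5.58-fold, 4.0 to 7.71). The tissue factor gene F3 had 161 and 20.2 CPM (7.94-fold, 3.03 to 19.7). The plasminogen activator inhibitor gene Serpinb2 had 143 and 11.6 CPM from 8 UMIs on each side (12.4-fold, 4.04 to 37.8). Cxcl3, Inhba and Ckap2l are also among the leading genes of cluster 9.

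At day 6, with 10 double carriers and 141 cells with Ptgs2 alone, the 10 genes were Clec1a, Micall1, Zfp655, Serpinb2, Gk, Grk5, Iars2, Lonrf3, Stx2 and Fbxo32, from 3 to 7 UMIs each in the double carriers. Serpinb2 was the gene also named at day 10, with 300 CPM in double carriers and 17.7 CPM in cells with Ptgs2 alone. At day 3, with 6 double carriers and 397 cells with Ptgs2 alone, they were Anapc7, F7, Mir155hg, Donson, Nudt4, Pom121, Ankrd28, Man1b1, Impa2 and Rgs1. Of these Rgs1, a regulator of G protein signalling, had 1500 CPM in double carriers and 139.8 CPM in cells with Ptgs2 alone (10.7-fold, 6.13 to 17.8), and Mir155hg, the host gene of miR-155, had 750 and 47.9 CPM (15.7-fold, 6.66 to 33.0).

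The degrading enzyme was then set beside the synthesis enzymes. Hpgd and Ptges were found in the same cell 0 times at day 3, 0 times at day 6 and 2 times at day 10, where independence would give 1.64, 2.64 and 7.84 cells. After thinning no cell held both, where independence would give 0.154, 0.699 and 1.80. Of the Hpgd-carrying cells 32.0% had Ptgs2 at day 3, 29% at day 6 and 20.6% at day 10, against 68.0%, 51.6% and 47.7% of the cells without Hpgd. The intervals were apart at day 3 (19.5 to 46.7 and 64.5 to 71.4) and at day 10 (11.7 to 32.1 and 44.6 to 50.7), and overlapped at day 6 (14.2 to 48.0 and 46.6 to 56.6). After thinning they also overlapped at day 3, with 31.6% (12.6 to 56.6) against 55.1% (51.4 to 58.8). At day 10 they stayed apart, with 8.11% (1.70 to 21.9) against 36.6% (33.7 to 39.7). For Hpgds at day 10, 28.7% of 129 carrying cells had Ptgs2 (21.1 to 37.3), against 48.3% of the others (45.1 to 51.4). The thinned shares at day 10 were 15.6% (6.49 to 29.5) and 36.5% (33.5 to 39.6), still apart. At day 6 the shares without thinning were 38.8% (29.1 to 49.2) and 53.3% (47.8 to 58.7), with overlapping intervals. At day 3 they were 36.4% of 11 cells (10.9 to 69.2) and 66.1% (62.6 to 69.5), also overlapping. Ptges and Hpgds, the synthases for prostaglandins E2 and D2, shared 4 cells at day 10 where independence would give 14.9, and 3.05% of the Ptges-carrying cells had Hpgds (0.838 to 7.63), against 12.4% of the others (10.5 to 14.6). With thinning the intervals overlapped, at 1.96% (0.0496 to 10.4) against 4.40% (3.22 to 5.87). Then 1 cell held both, where independence would give 2.19. The counts under independence take no account of clusters.

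Within the leukotriene branch, Alox5 was found in 9.33% of the Ltc4s-carrying cells at day 3, against 6.13% of the others, with overlapping intervals. At day 6 it was 25.8% (17.1 to 36.2) against 5.80% (3.58 to 8.81), and at day 10 it was 17.8% of 163 cells (12.3 to 24.5) against 5.14% (3.84 to 6.72). After thinning, Alox5 was in 13.8% of the Ltc4s-carrying cells (3.89 to 31.7) and 2.5% of the others (1.1 to 4.69) at day 6, where the intervals then overlapped, and in 9.86% (4.06 to 19.3) and 1.94% (1.17 to 3.01) at day 10, where they stayed apart. Nearly all Ltc4s-carrying cells had Alox5ap, 98.7% at day 3, 98.9% at day 6 and 96.9% at day 10, against 97.4%, 90.7% and 85.5% of the others. After thinning the intervals overlapped at day 3 and day 6. At day 10 the thinned shares were 81.7% (70.7 to 89.9) and 67.3% (64.3 to 70.2). Ptgs1 was found in 13.3% of Hpgds-carrying cells (7.26 to 21.6) against 2.38% of the others (1.03 to 4.64) at day 6. At day 10 it was found in 11.6% (6.66 to 18.5) against 6.75% (5.28 to 8.48), with overlapping intervals. After thinning, 3 cells held Hpgds and Ptgs1 at day 6 and no cell held them together at day 10.

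**Figure D4:**
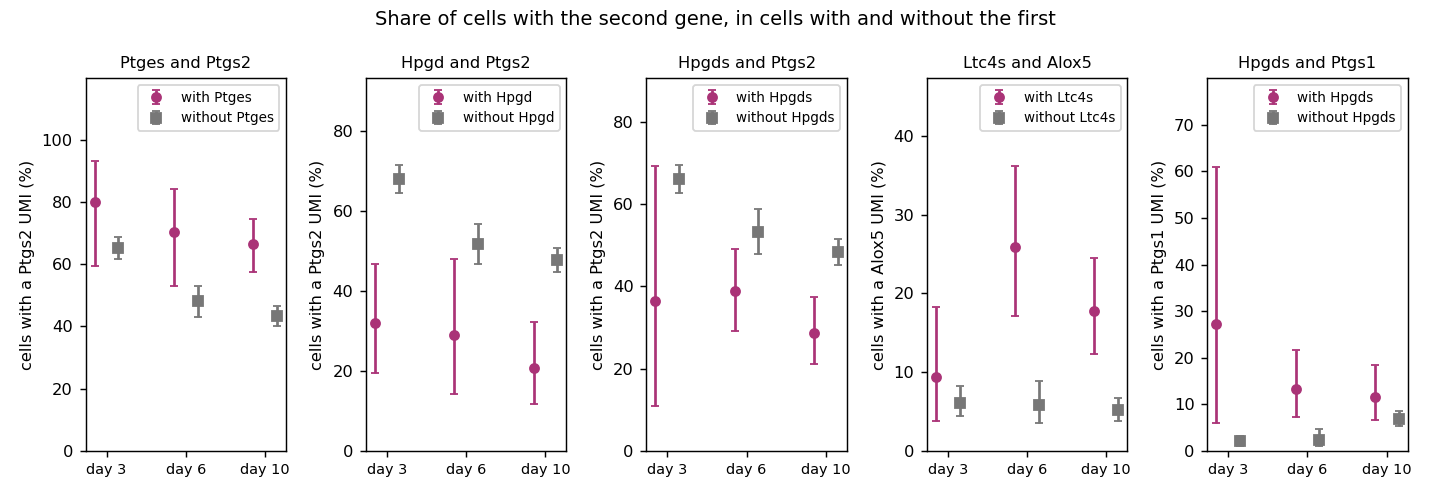
Percent of monocyte/macrophage-like cells with at least 1 UMI of the second gene of a pair, in cells with the first gene (circles) and in cells without it (squares), by day and without thinning. Bars are exact 95% binomial intervals. At day 10, Ptgs2 is more frequent in cells with Ptges (66.4% against 43.4%) and less frequent in cells with Hpgd (20.6% against 47.7%) or Hpgds (28.7% against 48.3%). The intervals overlap or touch at day 3 and day 6 for Ptges, overlap at day 3 and day 6 for Hpgds, and overlap at day 6 for Hpgd.

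The wider pathway was counted on a list of 59 other genes, of which 58 were in the files. At day 10 against day 3, 9 of the 30 with at least 20 UMIs over both libraries were at least 1.5-fold higher and 3 lower. At day 6 against day 3, 12 of 30 were higher and 5 lower, and at day 10 against day 6, 3 of 31 were higher and 5 lower. Their median log2 ratios were 0.28, 0.46 and -0.14, beside the medians over all genes given above. Over all genes compared, 26.3% were higher and 11.3% lower at day 10 than at day 3, 30.1% and 11.5% at day 6 against day 3, and 7.12% and 11.2% at day 10 against day 6, so the first of these counts (9 and 3 of 30) lay near the background. By role, at day 10 against day 3, 2 of 5 phospholipases, 3 of 8 other synthases, 1 of 5 lipoxygenases and leukotriene enzymes, 2 of 4 genes of breakdown and export, and 1 of 8 receptors were higher, and the 3 lower genes were receptors. The 18 genes with at least 20 CPM on some day are named here, and 27 of the others stayed under 1 CPM throughout.

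Of the phospholipases, Pla2g7, the lipoprotein-associated form, had 323 CPM at day 3, 577 at day 6 and 494 at day 10, and day 10 was 1.53-fold higher than day 3. Pla2g4a, the cytosolic phospholipase that frees arachidonic acid, had 29.7, 31.8 and 39.4 CPM, and the lysosomal Pla2g15 had 29.7, 54.7 and 40.8 CPM. Of the other synthases, Ptges3, the cytosolic prostaglandin E synthase, was at 120.4, 121 and 115 CPM and within 1.5-fold on all days, unlike Ptges. The thromboxane synthase Tbxas1 had 56.4, 79.3 and 61.4 CPM, and the aldose reductase Akr1b3 had 64.5, 82.7 and 75.1 CPM. Fam213b, a prostaglandin F synthase, had 34.7, 58.1 and 69.7 CPM, 2.01-fold higher at day 10 than at day 3 (1.73 to 2.33). The carbonyl reductase Cbr2 was 3.82-fold higher at day 6 than at day 3 (3.27 to 4.47), at 122 and 31.9 CPM, and had 56.3 CPM at day 10.

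Prostaglandin reductase 1 (Ptgr1), which inactivates both prostaglandins and leukotriene B4, was 4.95-fold higher at day 6 than at day 3 (3.98 to 6.20), at 73.1 and 14.8 CPM, and had 34.6 CPM at day 10. The leukotriene C4 exporter gene Abcc1 had 51.2 CPM at day 3, 79.9 at day 6 and 133 at day 10, so day 10 was 2.60-fold higher than day 3 (2.31 to 2.92). Cyp4f18, which oxidises leukotriene B4, had 116, 156 and 95.5 CPM and was 1.64-fold lower at day 10 than at day 6. The glutathione transferases Mgst1, at 139, 112 and 160 CPM, and Mgst3, at 26.3, 37.2 and 30.8 CPM, stayed within 1.5-fold.

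Among the receptors, the leukotriene B4 receptor gene Ltb4r1 had 216.7 CPM at day 3, 54.0 at day 6 and 64.3 at day 10, and was 3.37-fold lower at day 10 than at day 3 (3.06 to 3.71). The formyl peptide receptor genes Fpr2, which also binds lipoxin A4, and Fpr1 were 3.36-fold (2.88 to 3.94) and 2.54-fold (2.06 to 3.14) lower at day 10 than at day 3. Fpr2 had 82.0, 33.4 and 24.4 CPM and Fpr1 had 38.2, 12.7 and 15.02 CPM at day 3, day 6 and day 10. The prostaglandin E2 receptor gene Ptger4 was 1.58-fold higher at day 10 than at day 3 (1.30 to 1.93), with 20.9, 42.2 and 33.1 CPM over the 3 days. The cysteinyl leukotriene receptor gene Cysltr1 had 75.3, 49.0 and 70.3 CPM and was 1.54-fold lower at day 6 than at day 3 (1.31 to 1.80).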

How the data were processed

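The deposited matrices hold raw UMI counts per gene and barcode, made with Cell Ranger 3.0.2 against mm10, per the submitters' processing notes with an annotation release not stated in the labels. GENCODE vM21 supplied coordinates. The enzymes and lists were chosen with earlier results of these data known. Kept cells (at least 200 genes, under 10% mitochondrial counts) were scaled to 10000, clustered with scanpy 1.11.5 (2000 variable genes without the enzymes and pathway, 1981 used; 30 components, 15 neighbours, Leiden resolution 0.8, seed 0) and named from 19 marker lists by a rule set after seeing the data: at least 5 monocyte and macrophage markers and fewer than 3 of another type. A cluster stayed unnamed if it had at least 5 monocyte and macrophage markers and at least 3 of another type, or reached neither number. It also stayed unnamed if it had more markers of another list than of its own among its 10 leading genes. Scrublet called 12, 6 and 5 doublets at day 3, day 6 and day 10, which were kept. UMIs were summed per class and day (depths in the report). Genes with at least 20 UMIs over both libraries were compared, and a ratio of 1.5 counted as a difference. Ratio intervals are conditional binomial and shares are Clopper-Pearson, while a count of 0 is limited by 3 counts of the total. Pathway genes were named at 20 CPM or more on a day, and likeness used genes of at least 50 CPM in 1 sum. Genes of double carriers were the 10 with the largest ratio at 100 CPM or more on 1 side. The ratio step was tested on simulated data. Alternatives covered cell filters, scaling (edgeR 4.0.16 TMM factors, median of ratios), minimum UMIs, doublets, thinning and left-out clusters.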

Additional observations from a re-analysis of the deposited data

Results flagged for a closer look

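Some clusters differed in the direction of the change between days, with 1 library a day, and these differences between clusters were not tested. Ptgs2 at day 6 against day 3 had a ratio of 1.95 in cluster 6 and 1.68 in the dendritic cell-like cluster 1, and 0.308 in cluster 4. At day 10 against day 6 its ratio was 2.37 in cluster 3, against 0.453 in cluster 1, 0.512 in cluster 2, 0.493 in cluster 4 and 0.511 in cluster 8. Hpgds at day 10 against day 6 had a ratio of 1.64 in cluster 1, 0.626 in cluster 2 and 0.0555 in cluster 8, the last from 5 UMIs at day 10 and 33 at day 6. In cluster 1, 2 of the 183 day 10 cells held 55.8% of the 77 Hpgds UMIs, carrying cells were 8.20% at day 10 and 13% at day 6, and without the 2 fullest cells of each library the ratio was 1.26 (0.728 to 2.23). The same step gave 0.902 (0.663 to 1.24) for Ptgs2 at day 10 against day 6 in cluster 2 and 2.11 (0.830 to 6.01) in cluster 4. Ltc4s at day 10 against day 3 had a ratio of 20.1 in cluster 1, from 25 UMIs and 1 UMI (3.30 to 827). There 2 of the 183 day 10 cells held 64% of the 25 UMIs. Without the 2 fullest cells of each library, 9 UMIs were left at day 10 and 0 at day 3, a ratio of at least 2.40. In cluster 4 Ltc4s had no UMI at day 10 and 136 at day 3, which makes it at least 3.57-fold lower against a floor of 3 UMIs in the library (ratio 0.280). At day 10 against day 6 the ratio of Ltc4s was 2.83 in cluster 5 and 0.516 in cluster 3, and without the 2 fullest cells of each library 3.22 (2.33 to 4.51) and 0.771 (0.357 to 1.85).

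Signal also appeared in the barcodes that the cell filter left out. The 572 left-out barcodes of day 3 had 49.9 CPM of Ltc4s and the kept cells had 23.8 CPM, a ratio of 2.10 (1.59 to 2.75). The 847 left-out barcodes of day 10 had 23.1 CPM of Ptgs1 and the kept cells had 13.9 CPM, a ratio of 1.66 (1.16 to 2.33). Left-out barcodes had a median mitochondrial share of 20.3% at day 3 and 20.5% at day 10, and the part of it in these values was not tested.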

How the results depend on the processing

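No paired analysis was possible because each day was 1 library with no replicate number. Over all settings, 80 values of the counts and shares stayed within 1.5 times or within their interval and 22 did not. The count of genes higher at day 10 than at day 6, which was 1, became 0 with all kept cells, with a mitochondrial limit of 20%, with no cell filter and without cluster 2, and 2 with the class rebuilt from clusters made with the enzymes. The count lower at day 10 than at day 6, which was 2, became 1 with these 3 cell filters, under TMM and median-of-ratios factors, with doublets left out, without the top 1% of cells, and without cluster 9, each time because Ptgs2 passed inside the limit. The count lower at day 10 than at day 3 became 2 under both scalings and 0 with the rebuilt class and without cluster 2, and the count lower at day 6 than at day 3 became 1 under both scalings and with the rebuilt class. TMM factors shifted all log2 ratios by -0.13, -0.22 and 0.09 for day 10 against day 3, day 6 against day 3 and day 10 against day 6. Of Ptges-carrying cells, the share with Ptgs2 was 50% (2 of 4) at day 3 with thinning to 1000 UMIs, and 69.5% (41 of 59) at day 10 with at least 2 UMIs of each gene. Without the 2 fullest cells of each library, the ratio of Ptgs2 in cluster 4 at day 10 against day 6 turned direction, with a log2 value of 1.08 from 17 and 7 UMIs. The cause was not tested. The alternatives without a cluster, with the rebuilt class or without the 2 fullest cells were chosen after seeing the data. The other Ptges ratios depended more on the setting. That of day 6 to day 3 ranged from 1.34 to 18.1 and that of day 10 to day 6 from 0.772 to 5.01, where 1.34 and 5.01 were the values without cluster 9. Ptges stayed 6.69-fold to 14.0-fold higher at day 10 than at day 3 and Hpgds 6.23-fold to 45.5-fold in all settings run. The upper Hpgds value came from 3 UMIs at day 3. Depth limits Ptgs1, Alox5 and the day 3 levels of Ptges and Hpgds, each from 20 to 107 UMIs.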
